A study of Mus musculus with 9 samples.

Results

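Metallothioneins are small cysteine-rich proteins that hold zinc and copper through the sulfur atoms of their cysteines. The mouse has a cluster of such genes. Mt1 and Mt2 are made in many tissues and are known to respond to metals, glucocorticoids, oxidative stress and inflammation, in brain mainly in astrocytes, ependyma and vessels. Mt3 is the form of the nervous system, once called growth inhibitory factor, made in neurons and astrocytes. Mt4 belongs to stratified epithelia. The zinc-sensing factor MTF-1 binds short metal response elements in the promoters of Mt1 and Mt2. Mt1, Mt2 and Mt3 were taken by symbol from the deposited expression table, where each has 1 row. They are 3 of 55385 gene rows, and all 3 passed the filter on low values that left 16982 genes for testing.

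Whole RNA of the brain hemisphere, the ischemic one where the artery was closed, from male C57BL/6 mice 8 to 10 weeks old, freed of ribosomal RNA, was sequenced in 9 libraries, 3 in each of 3 groups. Sham animals were operated on without closing the artery. The second group had transient middle cerebral artery occlusion (tMCAO), a model of ischemic stroke with reperfusion, in which a coated filament blocked the artery for 90 min. The celastrol group went through this same blockade, and celastrol, a triterpenoid from a vine, was injected into the abdominal cavity at 4.5 mg/kg as blood flow returned. The labels describe no vehicle injection, no time from reperfusion to sampling and no number of animals per library. The p-values therefore measure only how far these libraries differ, which may be technical. Library totals ran from 60392960 to 75158625 estimated counts. Markers of brain regions varied within groups: summed levels of 6 thalamic markers ran from 75.7 to 595 in the tMCAO libraries and those of 5 hippocampal markers from 26.0 to 172 (counts scaled to library size, CPM). In sham the same sums ran from 59.2 to 236 and from 29.0 to 111 CPM. Those of 6 striatal markers ran from 136 to 807 CPM in sham and from 180 to 462 CPM after tMCAO. The neuron markers Rbfox3, Snap25 and Syt1 and the astrocyte markers Aqp4 and Slc1a3 were detected in every library, the lowest value among them being 69.0 CPM, for Aqp4.

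The 4 metallothionein genes of the table lie side by side on the forward strand of chromosome 8 (mm10, which is GRCm38). Mt4 spans 94137197 to 94139031, Mt3 (ENSMUSG00000031760) 94152607 to 94154146, Mt2 (ENSMUSG00000031762) 94172664 to 94173568 and Mt1 (ENSMUSG00000031765) 94179082 to 94180327. Each is annotated as protein-coding with at most 3 exons per transcript in GENCODE M21, at the coordinates the table gives. The coding sequences of the reference transcripts are shown because they set what the genes encode and how far sequencing reads can separate them. Capitals mark the codons for cysteine.
Mt1: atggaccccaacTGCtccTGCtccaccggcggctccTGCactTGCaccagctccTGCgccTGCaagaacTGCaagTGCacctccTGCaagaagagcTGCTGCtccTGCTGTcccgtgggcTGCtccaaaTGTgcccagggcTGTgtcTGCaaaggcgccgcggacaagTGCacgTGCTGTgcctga
Mt2: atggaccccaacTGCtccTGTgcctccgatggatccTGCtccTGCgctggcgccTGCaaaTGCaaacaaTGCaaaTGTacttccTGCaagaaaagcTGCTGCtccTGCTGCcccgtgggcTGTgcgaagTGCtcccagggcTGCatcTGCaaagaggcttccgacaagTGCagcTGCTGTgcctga
Mt3: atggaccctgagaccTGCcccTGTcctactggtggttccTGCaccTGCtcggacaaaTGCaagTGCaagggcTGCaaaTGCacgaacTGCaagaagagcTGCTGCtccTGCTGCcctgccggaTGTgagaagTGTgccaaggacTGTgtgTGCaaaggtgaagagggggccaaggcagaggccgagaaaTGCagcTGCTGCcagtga
Mt1 and Mt2 each had 61 codons before the stop, of which 20, or 32.8%, were for cysteine. Mt3 had 68 codons and 20 for cysteine. In global alignments of the coding sequences Mt1 and Mt2 were identical at 79.6% of aligned bases, Mt1 and Mt3 at 73.7% and Mt2 and Mt3 at 75.3%. The longest stretch shared letter for letter between whole transcripts was 20 bases for Mt1 and Mt2, 27 for Mt1 and Mt3 and 20 for Mt2 and Mt3, against reads of 150 bases.

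The promoters are shown because levels of Mt1 and Mt2 varied alike across the libraries and Mt3 did not vary as they did, as given below. Each run is the 250 bases before the gene's start in RefSeq (GRCm38.p6, forward strand), with cores of the metal response element, TGCACNC or TGCGCNC on either strand, in capitals. They cover chr8:94178839-94179088 for Mt1, chr8:94172368-94172617 for Mt2 and chr8:94152357-94152606 for Mt3.
Mt1: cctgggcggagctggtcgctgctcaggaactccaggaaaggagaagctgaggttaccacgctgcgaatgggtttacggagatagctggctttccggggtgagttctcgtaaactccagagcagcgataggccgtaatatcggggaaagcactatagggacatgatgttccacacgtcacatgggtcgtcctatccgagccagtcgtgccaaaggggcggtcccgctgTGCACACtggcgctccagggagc
Mt2: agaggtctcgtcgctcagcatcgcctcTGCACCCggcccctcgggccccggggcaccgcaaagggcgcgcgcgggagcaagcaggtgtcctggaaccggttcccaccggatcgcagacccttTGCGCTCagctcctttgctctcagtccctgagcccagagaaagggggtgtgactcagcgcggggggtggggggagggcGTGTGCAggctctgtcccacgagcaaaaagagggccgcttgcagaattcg
Mt3: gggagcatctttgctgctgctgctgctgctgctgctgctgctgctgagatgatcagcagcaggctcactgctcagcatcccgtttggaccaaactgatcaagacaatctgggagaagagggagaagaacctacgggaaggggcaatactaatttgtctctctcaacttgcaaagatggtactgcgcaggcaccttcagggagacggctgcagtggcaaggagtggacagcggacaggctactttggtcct
RefSeq and the deposited table place the starts apart, at 94179089 and 94179082 for Mt1 and at 94172618 and 94172664 for Mt2, and both use 94152607 for Mt3. Over the 250 bases before and 50 after RefSeq's start, Mt1 had 3 cores, Mt2 had 4 and Mt3 had 1. The further Mt1 cores were TGCACTC and TGCGCTC, beginning 3 and 21 bases from the start, the further Mt2 core was TGCGCAC on the reverse strand at base 5, and the Mt3 core was TGCACAC at base 28. Of 32851 promoter windows of that length in RefSeq, 25.7% held at least 1 core, 1.97% at least 3 and 0.517% at least 4. The Mt2 window also held the antioxidant response element core TGACNNNGC, present in 12.4% of windows and written TGACTCAGC there. The Mt1 window held the glucocorticoid response element core ACANNNTGT, present in 6.85%. The STAT site TTCNNNGAA (8.3% of windows) and the E box CACGTG (7.15%) were in none of the 3 windows. Such matches describe letters and not bound sites. GENCODE M21 lists 3 transcripts for Mt1, 2 for Mt2 and 3 for Mt3, and only the window at RefSeq's start was searched. A core or element further from that start, on either side, would be missed. The counts and absences above therefore hold for these windows only and not for the whole promoters. Other tested genes with at least 3 metal response element cores numbered 456, with a median log2 fold change of −0.02 for tMCAO against sham. Over the 11375 tested genes with a window the median was 0.00.

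Mt1 and Mt2 were several-fold more abundant after tMCAO than after sham surgery, and Mt3 was 1.16 times as abundant, but none of the 3 passed the main test. Levels are given as FPKM, which are fragments corrected for library size and for the length of the transcript. Mt1 stood at 85.5, 60.7 and 45.2 FPKM in sham replicates 1, 2 and 3, at 382, 240.3 and 192 FPKM after tMCAO, and at 290.1, 108 and 238 FPKM with celastrol. Every occluded library lay above every sham library for Mt1, and celastrol replicate 2 was the lowest of the occluded ones. Mt2 stood at 114, 74.0 and 43.0 FPKM in sham, at 754, 362 and 339 FPKM after tMCAO, and at 487, 110.0 and 315 FPKM with celastrol. Each tMCAO library exceeded each sham library for Mt2, while celastrol replicate 2 lay within the sham range. Mt3 stood at 121, 103 and 100.4 FPKM in sham, at 129, 129.5 and 145 FPKM after tMCAO, and at 125, 109 and 138 FPKM with celastrol. For Mt3 the tMCAO libraries lay just above the sham libraries and the celastrol libraries overlapped both.

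**Figure D1:**
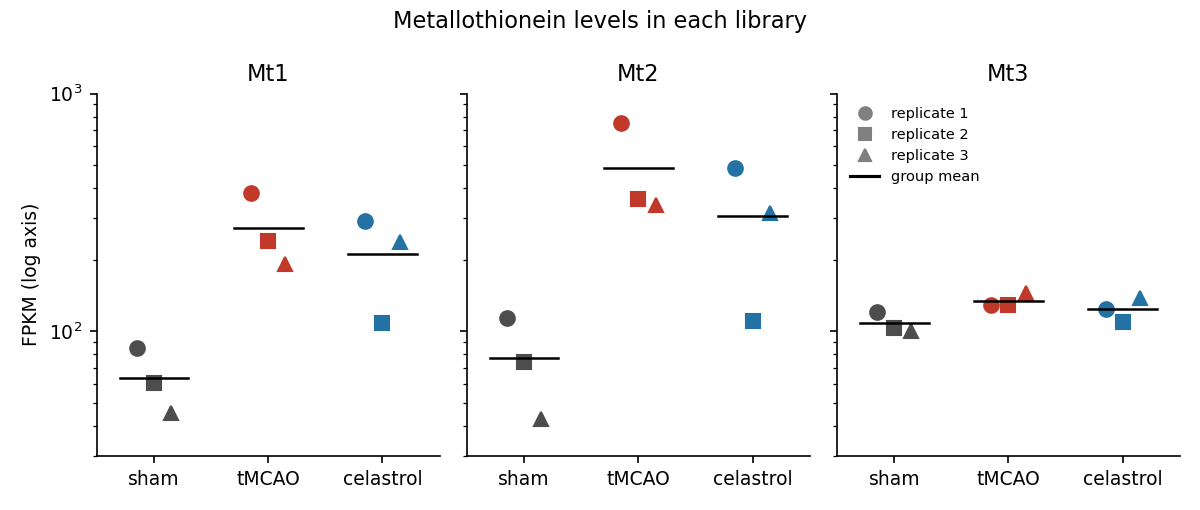
FPKM (log axis) of Mt1, Mt2 and Mt3 in each of 9 libraries, by group, with replicate shown by marker and the group mean as a line. Mt1 and Mt2 separate tMCAO from sham, celastrol replicate 2 sits near sham, and Mt3 stays between 100.4 and 145 FPKM in every library.

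Among 21804 rows with a protein-coding transcript, Mt2 ranked 14th, 34th and 34th by FPKM in the tMCAO libraries and between 215th and 756th in sham. Mt1 ranked between 31st and 87th after tMCAO and between 305th and 714th in sham. Mt3 kept ranks of 198 to 234 in sham, 141 to 165 after tMCAO and 144 to 216 with celastrol. The order of the group means was tMCAO, celastrol and sham for each gene. For Mt2 these were 485 ± 233, 304 ± 189 and 77.0 ± 35.6 FPKM (SD, n = 3 each), with tMCAO and celastrol apart by less than 1 SD. For Mt1 they were 271 ± 98.9, 212 ± 93.7 and 63.8 ± 20.3 FPKM (SD, n = 3 each), again with tMCAO and celastrol within 1 SD. For Mt3 they were 134 ± 9.09, 124 ± 14.4 and 108 ± 11.2 FPKM (SD, n = 3 each). The coefficient of variation within groups was 31.8% to 44.2% for Mt1, 46.2% to 62.1% for Mt2 and 6.77% to 11.6% for Mt3. In bulk tissue, fewer cells that make a transcript and less transcript per cell cannot be told apart.

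The comparison of tMCAO with sham asks what occlusion and reperfusion do to these transcripts. It was fitted with edgeR's quasi-likelihood test on the estimated counts of all 9 libraries, with Benjamini-Hochberg adjustment over all genes tested. Mt1 averaged 92.9 ± 27.6 CPM in sham and 372 ± 139 CPM after tMCAO (SD, n = 3 each), a log2 fold change of 2.00 ± 0.39 (SE; 95% interval 1.12 to 2.88). Its unadjusted p was 0.000634, rank 91 of 16982, and its edgeR adjusted p was 0.117. Mt2 averaged 52.8 ± 23.4 and 314 ± 154 CPM (SD, n = 3 each), a log2 fold change of 2.57 ± 0.56 (SE; 95% interval 1.3 to 3.85), with an edgeR adjusted p of 0.131. Mt3 averaged 135 ± 11.0 and 157 ± 7.42 CPM (SD, n = 3 each), a log2 fold change of 0.22 ± 0.11 (SE; 95% interval −0.02 to 0.45), with an edgeR adjusted p of 0.382. At the adjusted threshold of 0.05 edgeR called 0 of 3 members and 0 of 16982 genes (0%). At an unadjusted p below 0.05, 2 of 3 members stood, beside 2534 genes (14.9%). The groups did not overlap on the CPM scale, with tMCAO higher, for 3 of 3 members and for 12.4% of all genes tested. DESeq2's Wald test, which called 836 genes (4.92%), gave an adjusted p of 3.31e-05 for Mt1, 9.23e-05 for Mt2 and 0.351 for Mt3. Over all alternatives run, the adjusted p of Mt1 ranged from 3.31e-05 to 0.424 and that of Mt2 from 9.23e-05 to 0.444. The celastrol libraries enter the fit's common spread, and without celastrol replicate 2 edgeR's adjusted p was 0.0431 for Mt1 and 0.0565 for Mt2.

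**Figure D2:**
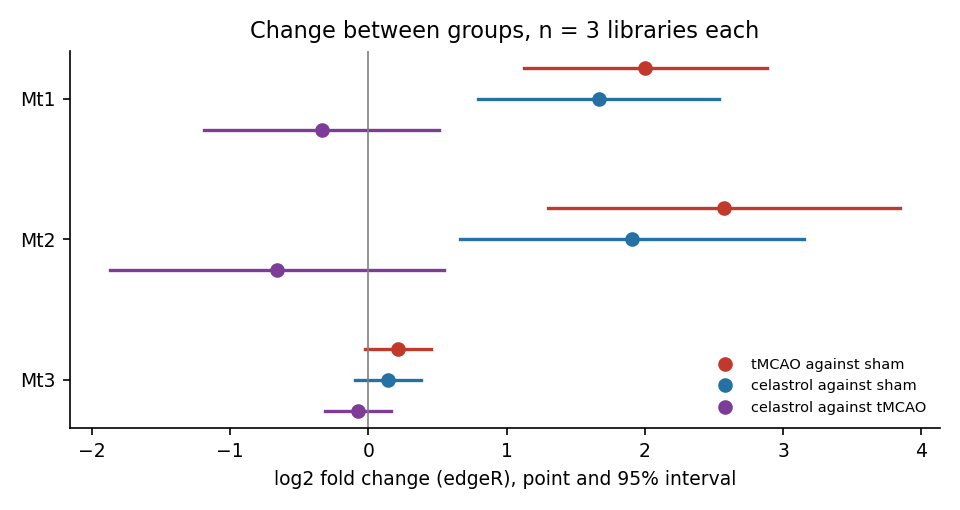
Log2 fold changes (points) with 95% intervals (lines) for Mt1, Mt2 and Mt3 in 3 comparisons of 3 libraries each, from edgeR. The intervals of Mt1 and Mt2 against sham lie above 0, those of celastrol against tMCAO span 0, and those of Mt3 span 0 in all 3 comparisons.

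Celastrol against tMCAO asks whether the drug changed the response. Its point estimates lay below 0 for all 3 members, and no interval excluded 0. The log2 fold change was −0.34 ± 0.37 (SE; 95% interval −1.19 to 0.51) for Mt1, −0.66 ± 0.53 (SE; −1.87 to 0.54) for Mt2 and −0.07 ± 0.11 (SE; −0.31 to 0.16) for Mt3. The edgeR adjusted p was 0.976, 0.976 and 0.981, and 0 of 3 members and 0 of 16982 genes (0%) passed, where 698 genes (4.11%) had an unadjusted p below 0.05 and DESeq2 called 18 (0.106%). The groups overlapped for 3 of 3 members, where 3.73% of genes lay higher without overlap and 4.13% lower. For Mt1 the estimate came to 0.00 without tMCAO replicate 1 and to −0.04 without celastrol replicate 2. For Mt2 it came to −0.18 and −0.28 without the same libraries, and to −1.14 without celastrol replicate 1. Any difference within the intervals above, 0 included, remains compatible with these libraries.

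Against sham, the celastrol libraries had a log2 fold change of 1.67 ± 0.38 (SE; 95% interval 0.79 to 2.54) for Mt1 and 1.91 ± 0.55 (SE; 0.66 to 3.15) for Mt2. The edgeR adjusted p was 0.252 for Mt1 and 0.356 for Mt2. For Mt3 the log2 fold change was 0.14 ± 0.11 (SE; −0.10 to 0.38), with an edgeR adjusted p of 0.780. EdgeR called 0 of 3 members and 1 of 16982 genes (0.00589%), while 2 of 3 members had an unadjusted p below 0.05 and lay higher, beside 5.69% of genes in that direction and 8.51% in either. DESeq2, which called 380 genes (2.24%), gave adjusted p-values of 0.00178 for Mt1 and 0.0144 for Mt2. Mt1 lay above sham without overlap on both scales, as did 7.89% of genes on the CPM scale (5.54% lay lower). For Mt2 the call of no overlap depended on the scale. Celastrol replicate 2 had 77.4 CPM against 76.6 CPM in sham replicate 1, and 110.0 FPKM against 114 FPKM. With that library left out, the log2 fold change against sham was 1.96 for Mt1 (edgeR adjusted p = 0.0720) and 2.29 for Mt2 (edgeR adjusted p = 0.107). Without celastrol replicate 1 it was 1.41 for Mt1 (edgeR adjusted p = 0.721) and 1.44 for Mt2 (edgeR adjusted p = 0.963), the lowest values among the fits with 1 library left out. Since sham libraries serve both comparisons with sham, the tMCAO and celastrol values against it are not independent.

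Set against sham together, both occluded groups gave a log2 fold change of 1.83 ± 0.36 (SE) for Mt1, 2.24 ± 0.52 (SE) for Mt2 and 0.18 ± 0.09 (SE) for Mt3. The edgeR adjusted p was 0.105, 0.147 and 0.434, with 2 of 16982 genes called (0.0118%) and none of them a member. At an unadjusted p below 0.05, Mt1 and Mt2 stood among 13.4% of genes, and among 8% that were higher. On the CPM scale Mt1 and Mt2 lay above sham in 6 of 6 occluded libraries, as did 4.2% of genes, and 2.53% lay below. DESeq2, which called 4.69% of genes, gave adjusted p-values of 6.3e-06 for Mt1 and 6.45e-05 for Mt2. Without celastrol replicate 2 the adjusted p was 0.0313 for Mt1 and 0.0458 for Mt2, and 198 genes were called. Without sham replicate 2 it was 0.465 for Mt1 and 0.544 for Mt2, the highest with 1 library left out.

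By FPKM, Mt3 was the most abundant of the 3 in every sham sample and Mt2 in every tMCAO sample. The order of Mt1 and Mt2 turned on counts, where Mt1 exceeded Mt2 in every library. After tMCAO the estimated counts were 38584, 24100 and 16579 for Mt1 and 35939, 17124 and 13827 for Mt2. Their reference transcripts have 549 and 511 bases, so the order of this pair depends on the lengths used in FPKM. In sham replicates 1, 2 and 3, Mt3 made up 37.8%, 43.4% and 53.2% of the summed FPKM of the 3 genes. After tMCAO it made up 10.2%, 17.7% and 21.4%, and with celastrol 13.8%, 33.3% and 19.9%. The summed level was 321, 238 and 189 FPKM in sham, 1265, 732 and 676 FPKM after tMCAO, and 902, 327 and 691 FPKM with celastrol. Mt2 took 49.5% to 59.6% of it after tMCAO and 22.8% to 35.6% in sham. Mt1 held 24.0% to 34.5% of the sum in all 9 libraries.

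These shares were compared through log2 ratios of FPKM, which cancel library size. The Mt3 to Mt1 ratio was 0.81 ± 0.33 in sham, −0.96 ± 0.59 after tMCAO and −0.67 ± 0.63 with celastrol (log2, SD, n = 3 each). Its mean over the 6 occluded libraries was 1.62 lower than in sham, without overlap (two-sided exact permutation p = 0.0238, the smallest that 6 against 3 libraries can give; adjusted p = 0.143 over 12 ratio tests). The Mt3 to Mt2 ratio was 0.60 ± 0.58 in sham, −1.75 ± 0.70 after tMCAO and −1.06 ± 0.98 with celastrol (log2, SD, n = 3 each), a difference of −2.004 for the occluded libraries (exact permutation p = 0.0238; adjusted p = 0.143). The Mt1 to Mt2 ratio was −0.21 ± 0.25, −0.80 ± 0.20 and −0.39 ± 0.36 in the same order. It separated tMCAO from sham without overlap by −0.59 (exact permutation p = 0.1, the smallest that 3 against 3 allow; adjusted p = 0.171), and in celastrol it overlapped both groups. No ratio test passed after adjustment. As a plain quotient it was 1.05 in sham replicate 3, the library with the lowest sum, and 0.507 in tMCAO replicate 1, the library with the highest.

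**Figure D3:**
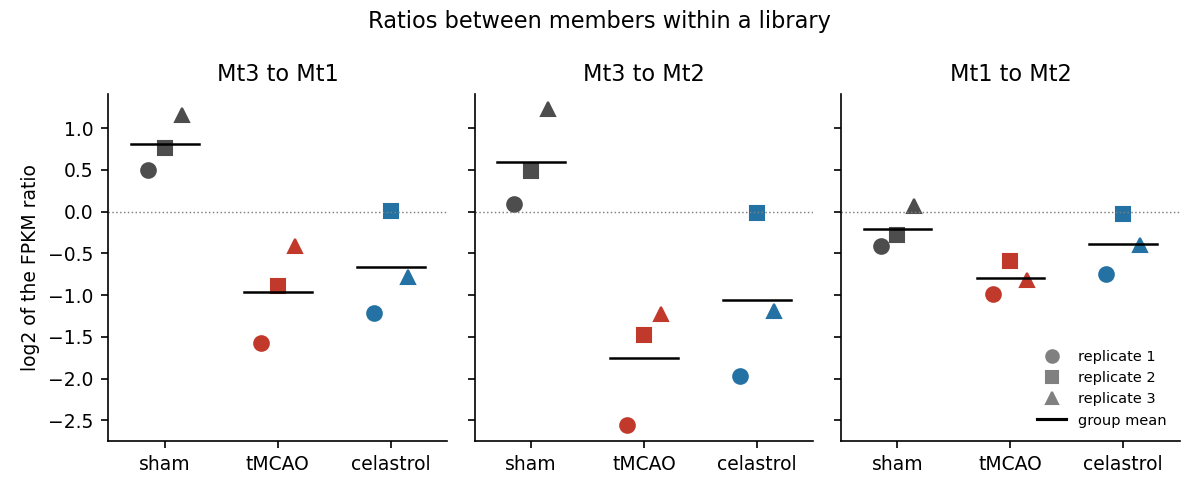
Log2 ratios of FPKM between members within each of 9 libraries, by group, with group means as lines, where 0 means equal FPKM. Mt3 exceeded Mt1 and Mt2 in all 3 sham libraries and lay below both in all 3 tMCAO libraries, while celastrol replicate 2 sat at 0.01 and −0.01.

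Mt2 shares its place with another transcript. Gm45774, an antisense non-coding gene on the reverse strand (94170748 to 94173412), covers 432 of the 588 exon bases of Mt2, or 73.5%. The sources used here do not say whether reads were assigned by strand, so reads of the pair cannot be told apart. Gm45774 counts were 9.13% to 12.6% of the Mt2 counts in every library, and its log2 fold change for tMCAO against sham was 2.29 ± 0.53 (SE; edgeR adjusted p = 0.143). The Mt2 level is therefore uncertain, as is the likeness of the pair. Mt1 and Mt3 overlap no other row of the table.

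The window reaching 100 kb to either side of the cluster held 8 rows besides the members, of which 5 were tested. The upstream genes Ogfod1, a hydroxylase of a ribosomal protein, and Bbs2, of the cilium-associated BBSome, had log2 fold changes of −0.08 ± 0.12 and 0.03 ± 0.12 (SE) for tMCAO against sham. Both signs turned in other fits. The downstream nuclear pore gene Nup93 stood at 0.45 ± 0.24 (SE) and the pseudogene Rpl10-ps5 at 0.27 ± 0.14 (SE), and none of the 5 passed the edgeR adjusted threshold. Mt4 had 0 counts in 7 libraries, 2 counts in tMCAO replicate 1 and 12 in tMCAO replicate 2. A count of 0 allows up to 3 counts, counting error only, so no fold is given for Mt4.

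**Figure D4:**
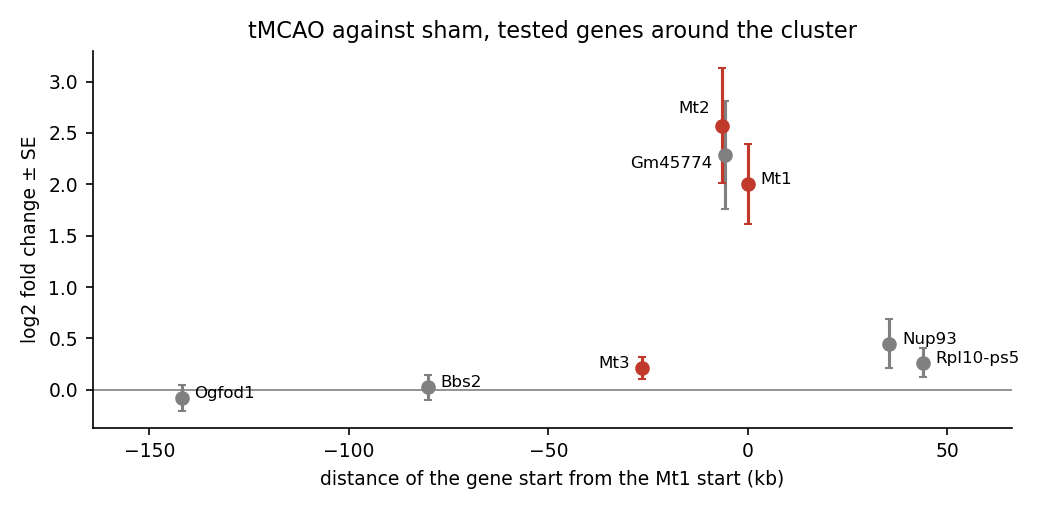
Log2 fold change ± SE, tMCAO against sham, of the 8 tested rows around the cluster (members in red), by distance of the gene start from the Mt1 start in kb. Mt2, its antisense neighbour Gm45774 and Mt1 stand between 2.00 and 2.57, while Mt3 and the flanking genes lie between −0.08 and 0.45.

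Likeness across libraries was measured as Pearson's r of log2 CPM over the 9 libraries, which carries the differences between groups and libraries that all genes share and is given as a description. Mt1 and Mt2 had an r of 0.99 with each other, and Mt3 had 0.73 with Mt1 and 0.74 with Mt2. The gene most like Mt1 was Mt2, followed by Gm45774 (0.99), Cebpd (0.99) and 1700018L02Rik (0.98). Cebpd encodes a C/EBP transcription factor of the acute phase and averaged 3.50 ± 1.06 CPM in sham and 18.5 ± 6.50 CPM after tMCAO (SD, n = 3 each). Beyond Gm45774 (0.998) and Mt1, Mt2 was most like Slc14a1 (0.98), a urea transporter of astrocytes, Nop14 (0.98), of ribosome assembly, and Tmem176b (0.98). Mt3 was most like Arrb2 (0.95), a beta-arrestin, the ribosomal protein gene Rps13 (0.93), Nipsnap3b (0.92), Gpnmb (0.91) and Gm22965 (0.91), the last at 0.11 CPM or less. The list for Mt3 held no metallothionein, and Mt2 was 428th in it.

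The medians of the zinc and copper handling lists lay near 0, and those of zinc importers and copper genes took either sign across the fits run. The zinc importer median was −0.21 without tMCAO replicate 2 and 0.16 without tMCAO replicate 1, and the copper median was −0.02 at a filter of 1 FPKM. In the lists below edgeR called 0 genes after adjustment in any of the 4 comparisons, and medians stand beside the median of all tested genes, which was 0.01 for tMCAO against sham. The zinc exporter family (Slc30a genes, most of which move zinc out of the cytosol) had 9 of 10 members tested. Their median log2 fold change was −0.10. Of the 9, 2 had an unadjusted p below 0.05, both lower, beside 14.9% of all genes in either direction. Slc30a10 averaged 21.1 ± 3.09 CPM in sham and 11.0 ± 2.42 CPM after tMCAO, and Slc30a2 8.03 ± 1.35 and 4.42 ± 0.998 CPM (SD, n = 3 each). Slc30a3, which loads zinc into synaptic vesicles, stood at 60.8 ± 16.1 CPM in sham, 36.0 ± 4.07 CPM after tMCAO and 70.1 ± 40.7 CPM with celastrol (SD, n = 3 each), with log2 fold changes of −0.76 ± 0.37 against sham and 0.96 ± 0.37 for celastrol against tMCAO (SE). Slc30a1, the plasma membrane exporter and a textbook MTF-1 target, was singled out after its values were seen. It lay at 41.6 ± 4.31 CPM in sham and 41.5 ± 9.90 CPM after tMCAO (SD, n = 3 each).

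Of 14 zinc importers (Slc39a genes), 11 were tested, with a median of 0.04, and 2 were higher and 3 lower at an unadjusted p below 0.05, beside 8.56% of all genes higher and 14.9% in either direction. The lower ones, named after their values were seen, were Slc39a10 at −0.59 ± 0.25, Slc39a12 at −0.59 ± 0.26 and Slc39a3 at −0.44 ± 0.16 (SE). Of these, Slc39a10 and Slc39a3 did not overlap between the groups. Among the 11 importers, 2 lay lower and 4 higher without overlap, beside 11.1% and 12.4% of all genes tested. Slc39a14, which carries zinc and also iron and manganese, averaged 39.1 ± 2.86 CPM in sham and 82.1 ± 27.2 CPM after tMCAO, and Slc39a1 38.1 ± 3.75 and 67.8 ± 11.1 CPM (SD, n = 3 each), both without overlap. Their edgeR adjusted p was 0.195 and 0.160. Slc39a9 overlapped between the groups, at 34.6 ± 32.6 and 57.5 ± 32.4 CPM (SD, n = 3 each). All 13 copper genes were tested (median 0.07). The largest differences were those of the copper-carrying ferroxidase Cp, at 1.18 ± 0.25 (SE; edgeR adjusted p = 0.125), and of the cytochrome oxidase copper chaperones Cox17, at −0.62 ± 0.23, and Sco2, at −0.45 ± 0.28 (SE). Cox17 stood at −0.30 without sham replicate 1 and Sco2 at −0.23 without sham replicate 3.

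Of 5 known regulators of metallothionein genes, all tested (median 0.04), 2 were higher and 1 lower at an unadjusted p below 0.05. Of all genes tested, 8.56% were higher at that level and 14.9% stood in either direction. Mtf1, the zinc sensor itself, also chosen after its values were seen, lay at 37.7 ± 6.84 CPM in sham and 32.5 ± 2.58 CPM after tMCAO (SD, n = 3 each). Stat3, which carries interleukin 6 family signals, averaged 51.6 ± 3.20 CPM in sham and 139 ± 37.9 CPM after tMCAO, and Nfe2l2, which encodes NRF2, 18.2 ± 2.11 and 32.6 ± 2.04 CPM (SD, n = 3 each). The glucocorticoid receptor Nr3c1 averaged 114 ± 17.6 and 89.1 ± 7.56 CPM (SD, n = 3 each), and these 3 had edgeR adjusted p-values of 0.144, 0.143 and 0.327. Of 15 interleukin 6 and STAT3 genes, 13 were tested (median 0.88), and 6 were higher at an unadjusted p below 0.05, against 8.56% of all genes. The cytokines Il11 and Lif and the feedback inhibitor Socs3 had the largest differences, at 4.56 ± 1.46, 4.46 ± 1.33 and 3.05 ± 0.55 (SE). Il11 and Lif are of low abundance, and with limma on log2(FPKM + 1), which understates low genes, they stood at 1.497 and 1.46, below Socs3 at 2.35. For the 10 glucocorticoid response genes the median was 0.67, and 3 were higher at an unadjusted p below 0.05, namely Cebpd at 2.40 ± 0.39, the co-chaperone gene Fkbp5 at 1.3 ± 0.37 and the pyruvate dehydrogenase kinase gene Pdk4 at 0.71 ± 0.24 (SE), the last named after its values were seen. Plin4, of lipid droplets, stood at 1.74 ± 0.89 (SE) with an unadjusted p of 0.0835, and at 3.60 without sham replicate 1. For the 10 NRF2 targets it was 0.93, with 8 higher at that level, among them Hmox1, which breaks down heme, at 4.35 ± 0.93, Osgin1 at 2.87 ± 1.07 and Srxn1, which repairs peroxiredoxins, at 1.28 ± 0.31 (SE). DESeq2, which called 4.92% of all genes for tMCAO against sham, called 0 zinc exporters, 2 zinc importers (Slc39a14 and Slc39a1), 1 copper gene (Cp), 2 regulators (Stat3 and Nfe2l2), 5 interleukin 6 genes, 2 glucocorticoid genes and 3 NRF2 targets, all higher after tMCAO. Osgin1 stood at 0.758 with limma on log2(FPKM + 1), below Srxn1. Between celastrol and tMCAO the medians were 0.35 for glucocorticoid genes, −0.06 for interleukin 6 genes and −0.21 for NRF2 targets, beside 0.00 for all genes tested. Of the glucocorticoid genes 2 were higher at an unadjusted p below 0.05, beside 2.25% of all genes. Against sham, the celastrol libraries had 8 of these 10 genes higher at that level, beside 5.69% of all genes, with a median of 1.18. Stat3 stands in both the regulator and the interleukin 6 list.

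**Figure D5:**
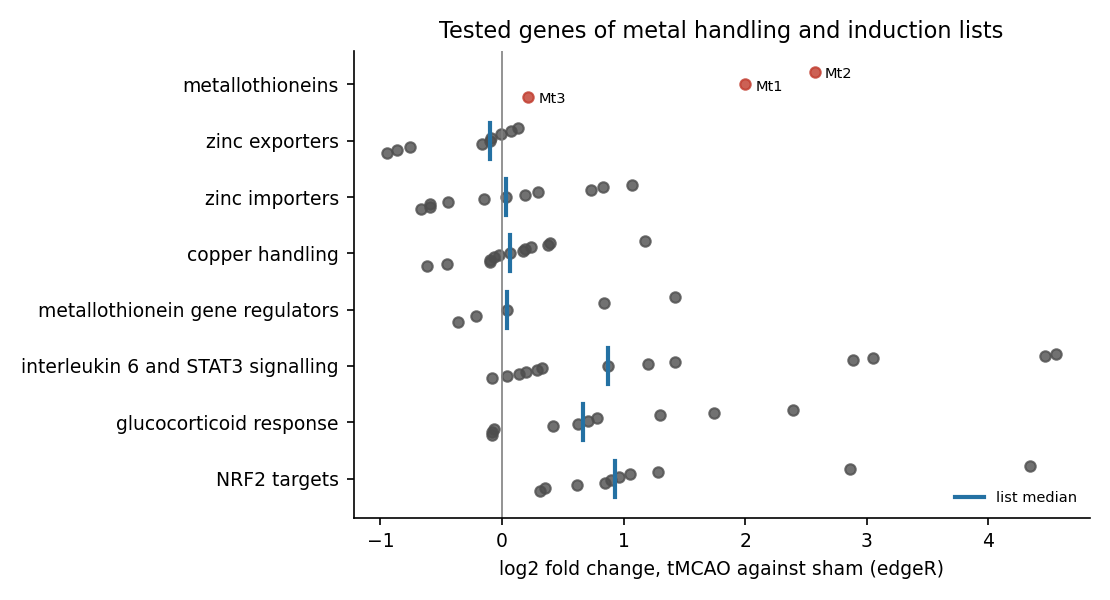
Log2 fold changes for tMCAO against sham of the 3 members (red) and of each tested gene (grey) in 7 lists, with list medians as blue lines. Zinc and copper lists centre near 0, with medians from −0.10 to 0.07, and the medians of the interleukin 6, glucocorticoid and NRF2 lists lie between 0.67 and 0.93.

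Marker genes of cell types known to make metallothioneins were summed in each library. The 10 astrocyte markers, all tested and none at 0, summed to 4812 to 5237 CPM in sham, 3644 to 4539 CPM after tMCAO and 4173 to 5007 CPM with celastrol. Slc1a2 alone made up 2551 to 3385 CPM in sham and 1869 to 2602 CPM after tMCAO. Aldh1l1 went the other way, at 47.6 to 68.6 and 71.3 to 97.4 CPM. With the markers weighted alike, as mean log2 CPM less the sham mean, the groups overlapped, at −0.13 to 0.20 in sham and −0.28 to 0.06 after tMCAO. The 10 reactive astrocyte markers, all tested and with Steap4 at 0 in sham replicate 2, summed to 191 to 371 CPM in sham, 1231 to 2458 CPM after tMCAO and 698 to 2102 CPM with celastrol. By replicate, the reactive astrocyte sum was 2458, 1231 and 2454 CPM after tMCAO and 2102, 698 and 1660 CPM with celastrol. Among the occluded libraries celastrol replicate 2 had the lowest such sum and the lowest Mt1 and Mt2. It was also lowest for the ependymal and choroid plexus sums, and not for the endothelial and neutrophil sums. After tMCAO, Mt1 and Mt2 were lowest in replicate 3, where the reactive astrocyte sum was not. The 8 endothelial markers summed to 304 to 318 CPM in sham, 289 to 352 CPM after tMCAO and 306 to 422 CPM with celastrol, and the 6 ependymal markers to 12.1 to 24.3, 17.4 to 30.7 and 12.7 to 24.7 CPM. The endothelial markers went both ways within that sum. Cdh5 stood at 16.2 to 17.8 CPM in sham and 23.3 to 57.1 CPM after tMCAO, and Itm2a at 41.7 to 59.3 and 12.6 to 35.5 CPM. The 8 choroid plexus markers, 7 of them tested, summed to 11.7 to 52.8 CPM in sham, 17.0 to 503 CPM after tMCAO and 8.63 to 1803 CPM with celastrol. The 8 neutrophil markers, 6 of them tested, summed to 0.541 to 2.53 CPM in sham, 11.5 to 21.6 CPM after tMCAO and 14.2 to 39.8 CPM with celastrol. By replicate, the choroid plexus sum was 277, 503 and 17.0 CPM after tMCAO, where Mt1 stood at 382, 240 and 192 FPKM. With celastrol it was 1803, 8.63 and 462 CPM, where Mt1 stood at 290, 108 and 238 FPKM. The 8 neuron markers, all tested, summed to 7153 to 8302 CPM in sham, 5878 to 6924 CPM after tMCAO and 6025 to 9165 CPM with celastrol. Not all of them lay lower after tMCAO: Map2 stood at 339 to 372 CPM in sham and 365 to 403 CPM after tMCAO. No marker of these lists was at 0 in all 9 libraries. The part of these cells in the Mt1, Mt2 and Mt3 levels was not tested.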

How the data were processed

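The authors deposited 1 table, in which each gene has an estimated count and an FPKM for every library. Tools named, per the submitters' processing notes, are StringTie 1.3.4d, HISAT2 2.0.4, cutadapt 1.9, DESeq2 and edgeR, with the build mm10. Their settings and roles are not stated there. The deposited estimated counts are whole numbers and needed no rounding, and the deposited FPKM holds 0.0001 where the count is 0. Genes that reached 0.5 FPKM in 3 or more libraries were tested with edgeR 4.0.16 (R 4.3.3; glmQLFit and glmQLFTest, TMM, 1 mean per group, no block, two-sided, threshold 0.05). CPM is scaled to the counts of tested genes after TMM, and log2 CPM used a prior count of 2. The SE of a log2 fold change was derived from its F statistic, and intervals (95%) use the fit's degrees of freedom, so both are approximate. Ratios were tested by exact permutation in scipy 1.17.1. Genes named were the members, Mt4, rows within 100 kb, the 5 genes most like each member, and in each list the 3 largest differences for tMCAO against sham, unless said otherwise; 1 gene of these is not reported here. Members and lists were chosen with earlier results of these data known. Alternatives were DESeq2 1.42.0, limma 3.58.1, other scalings and filters, a replicate block and leaving out each library. No 2 libraries agreed within sampling noise (lowest chi-square per degree of freedom 69.0). The edgeR script was tested on simulated data with a lower dispersion than the 0.0963 estimated from these libraries, so that test does not measure power in them. Promoters come from RefSeq (3 of 3 members matched) and coding sequences from GENCODE M21.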

Additional observations from a re-analysis of the deposited data

How the results depend on the processing

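Mt1, Mt2 and Mt3 were higher than sham in every fit run, and calls appeared in few. DESeq2's Wald test took Mt1 and Mt2 past the adjusted threshold against sham, with log2 fold changes of 2.00 and 2.57 for tMCAO, 1.66 and 1.902 for celastrol and 1.83 and 2.23 for both occluded groups. With 1 library left out, the tMCAO estimate ran from 1.67 to 2.24 for Mt1, and for both occluded groups from 1.64 to 2.08 for Mt1 and from 1.96 to 2.61 for Mt2; edgeR calls appeared without celastrol replicate 2. For celastrol against tMCAO, Mt1 ran from −0.59 to 0.00 (0.0014 without tMCAO replicate 1), and the log2 ratio of Mt3 to Mt1 from −0.0472 (without celastrol replicate 2) to 0.57, with −0.016 without tMCAO replicate 1. Scaling by library totals alone shifted the median of all genes for tMCAO against sham to 0.11, and left every member's sign as it was.

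Counts of genes called over the whole table moved more. For tMCAO against sham they were 836 with DESeq2, 3 with limma on log2(FPKM + 0.1), 2 with the newer quasi-likelihood form, 89 with only the groups compared, 51 with the replicate block and 0 to 90 with 1 library left out. For celastrol against tMCAO they were 18 with DESeq2 and 0 to 2 with 1 library left out. For celastrol against sham they were 380 with DESeq2, 3 with no filter, 2 at FPKM of at least 1, 0 with limma on log2(FPKM + 0.5) or voom, 6 with limma at 0.1 or the newer form, 4 with only the groups compared, 22 with the replicate block and 0 to 43 with 1 library left out. For both occluded groups they were 797 with DESeq2, 4 with no filter, 6 and 12 with limma at 0.5 and 0.1, 0 with voom, 5 with the newer form, 64 with the replicate block and 0 to 198 with 1 library left out. The counts of 90, 43 and 198 came without celastrol replicate 2. The cause was not tested.

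The labels do not say whether same-numbered libraries share more than a number. The correlations of their deviations from group means ran from −0.16 to 0.20, and those of other pairs from −0.26 to 0.23. Not every library correlated best with its own number. The replicate block moved the Mt1 estimate for tMCAO against sham to 1.98 (edgeR adjusted p = 0.0587) and changed no member's call. It lowered the SE from 0.39 to 0.29 for Mt1 and from 0.56 to 0.39 for Mt2. Whether equal numbers form pairs therefore cannot be told here. Ogfod1 turned to 0.02 with library totals (0.0179), with limma at each pseudocount (0.0197, 0.0201 and 0.0192) and without sham replicate 1 (0.0226), in a range of −0.132 to 0.0226 with 1 library left out. Bbs2 turned to −0.0175 and −0.0291 without tMCAO replicates 2 and 3, in a range up to 0.122. The common dispersion over all tested genes was 0.0963, with 3 libraries a group. The members had 1728 or more estimated counts in every library. On the CPM scale their coefficient of variation within groups was 29.7% to 40.4% for Mt1, 44.2% to 58.6% for Mt2 and 4.73% to 9.33% for Mt3. The effect of depth on precision was not tested.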
